A study of Homo sapiens with 15 samples.

Results

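The AP-1 and immediate early factors described here are 10 transcription factor genes: FOS, FOSB, FOSL1, FOSL2, JUN, JUNB, JUND, ATF3, MAFF and EGR1. They were picked out by gene symbol from the 60649 genes listed in each library, and each symbol was listed once. RNA was sequenced from HSC-5 cells, a line from a cutaneous squamous cell carcinoma that expressed Cas9, in 15 libraries made up of 3 biological replicates for each of 5 conditions. sgNeg was the control, which received the vector without a gene-directed sgRNA and is labelled wild type. sgPRMT5-1 and sgPRMT5-2 carried an sgRNA against PRMT5 and are labelled PRMT5 knockouts. sgWDR77-1 and sgWDR77-2 carried an sgRNA against WDR77 and are labelled WDR77 knockouts. All 15 libraries, the control included, carry the treatment label neomycin, the class of drug used to select infected cells, so no library was free of selection. The labels call the edited cells knockouts, whereas the design text speaks of knockdown, and no label says that a line came from 1 clone. The labels name a stranded library kit and the methods an unstranded one, and the strand setting of the counting was not stated. The reads assigned to genes numbered 5146711 in the smallest library and 6730428 in the largest.

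AP-1 is a dimer of basic leucine zipper proteins. JUN proteins pair with each other or with FOS proteins, whereas FOS proteins need a partner, so the mixture of subunits in a cell decides which dimers can form. Many of these genes are immediate early genes, which growth factors, wounding and stress switch on within minutes through MAP kinases and serum response factor, and in keratinocytes AP-1 controls proliferation, differentiation and the secretion of matrix proteases.

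Of the 10 genes, 9 had an entry in the RefSeq promoter set of GRCh38.p14, and FOSL1 had none. The 250 bases before each start were searched on both strands for 4 motifs. These were the AP-1 site TGANTCA, the CRE-like site TGACNTCA, the EGR site GCGNGGGCG and the CArG box bound by serum response factor, and no match of one overlapped a match of another in the sequences printed. The AP-1 site was found before 0 of the 9 genes and before 6.57% of 35114 promoters. The CRE-like site was found before 2 of the 9, JUN and JUND, and before 6.87% of all promoters. The EGR site (8.41% of all promoters) and the CArG box (1.16%) were each found before 1 of the 9, EGR1. The 3 promoters that held a match are printed 5′ to 3′ in the direction of the gene, because EGR1 is the gene of highest level in the control cells and because JUN and JUND are the only JUN genes that were higher with the second sgRNA to either target. Capitals mark the motif matches, which are matches of letters and not measured binding. In EGR1 (chr5:138465229-138465478, plus strand) they are the EGR site 198 bases before the start, and CArG boxes that begin 105 and 83 bases before it. In JUN (chr1:58784048-58784297, minus strand) they are a CRE-like site 67 bases before the start, and in JUND (chr19:18281623-18281872, minus strand) a CRE-like site 200 bases before it.
EGR1: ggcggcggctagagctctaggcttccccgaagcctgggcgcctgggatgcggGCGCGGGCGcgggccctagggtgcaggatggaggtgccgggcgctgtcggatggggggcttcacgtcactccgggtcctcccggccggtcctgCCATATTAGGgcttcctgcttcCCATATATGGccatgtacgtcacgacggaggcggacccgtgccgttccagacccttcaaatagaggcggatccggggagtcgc
JUN: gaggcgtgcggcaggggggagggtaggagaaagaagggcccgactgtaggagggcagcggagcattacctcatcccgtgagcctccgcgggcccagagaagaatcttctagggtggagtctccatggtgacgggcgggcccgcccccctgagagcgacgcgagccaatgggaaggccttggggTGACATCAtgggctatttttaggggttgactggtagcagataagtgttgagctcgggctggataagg
JUND: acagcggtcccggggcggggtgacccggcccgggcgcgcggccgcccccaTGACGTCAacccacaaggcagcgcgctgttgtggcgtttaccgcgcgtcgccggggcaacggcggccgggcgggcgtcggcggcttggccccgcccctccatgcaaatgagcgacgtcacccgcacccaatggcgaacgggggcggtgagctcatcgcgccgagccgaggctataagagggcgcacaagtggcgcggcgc

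The edited genes were looked at first, as a check of the labels. Levels are in CPM, that is, counts scaled to a common library size. PRMT5, the arginine methyltransferase, was at 59.1, 49.6 and 67.8 CPM in sgNeg replicates 1 to 3, at 33.0, 35.8 and 41.4 in sgPRMT5-1, and at 44.2, 44.5 and 39.4 in sgPRMT5-2. It was at 54.5, 64.2 and 54.4 CPM in sgWDR77-1 and at 79.9, 65.2 and 64.4 in sgWDR77-2. All 6 libraries labelled PRMT5 knockouts thus lay below all other libraries (log2 fold change -0.57 ± 0.119 (SE) against sgNeg, limma voom, adjusted p = 0.00874). WDR77, the partner of PRMT5 in the methylosome, was at 125, 114 and 119 CPM in sgNeg, at 134, 119 and 156 in sgPRMT5-1, and at 126, 130 and 119 in sgPRMT5-2. It was at 30.8, 52.0 and 53.3 CPM in sgWDR77-1 and at 26.6, 24.9 and 22.0 in sgWDR77-2. The 6 libraries labelled WDR77 knockouts lay below all others (log2 fold change -1.86 ± 0.216 (SE), adjusted p = 9e-05). Exons of PRMT5-AS1 cover 28.2% of the exons of PRMT5, and for WDR77 those of a long noncoding RNA cover 25.1% and those of ATP5PB 3.35%, so reads of those genes cannot be told apart from theirs with certainty. Transcripts of both genes were still counted in every edited library.

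The cell type label was checked in the same way. Of 13 keratinocyte and squamous markers, 12 had a mean of at least 1 CPM, their sum ran from 3534 to 4724 CPM, and the most abundant was KRT17 with 928 CPM. That sum was 3534 to 3678 CPM in sgPRMT5-2, below the 4090 to 4724 CPM of sgNeg. It was also below sgNeg in sgWDR77-1 replicates 2 and 3 (3571 and 3724 CPM) and in sgPRMT5-1 replicate 3 (3931 CPM). Its part in any result was not tested. Fibroblast markers summed to 6.68 to 16.2 CPM (7 genes, of which COL1A1 was the most abundant at 10.7 CPM and COL1A2 was at 0). Immune cell markers summed to 0.36 to 1.86 CPM (8 genes, CD14 the most abundant at 0.966 CPM, and CD3D, CD3E and MS4A1 at 0). Endothelial markers summed to 12.7 to 36.1 CPM (4 genes, CDH5 the most abundant at 20 CPM, and KDR at 0), and melanocyte markers to 2.55 to 7.48 CPM (4 genes, PMEL the most abundant at 3.48 CPM, and TYR and DCT at 0). The keratinocyte and squamous label was therefore borne out, and the other lists were low. The endothelial sum was 31.3 to 36.1 CPM in sgWDR77-1 against 12.7 to 24.9 CPM in all other libraries, and its part was not tested either.

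Some libraries stood apart from their replicates. Between pairs of replicates, the chi-square per degree of freedom of the counts ran from 1.58 to 19.4, and the highest were the 2 pairs that hold sgWDR77-1 replicate 1 (13.7 and 19.4, against 3.42 for the other pair of that condition). sgNeg replicate 2 had the highest share of reads outside genes (7.16%) and of mitochondrial reads (2.54%). sgPRMT5-1 replicate 3 had the lowest of both (2.75% and 0.729%). No pair of replicates differed by less than sampling noise, so each library was counted as 1 replicate. In sgNeg, 6 of the 10 genes varied more between replicates (SD as a percentage of the mean) than the median gene (8.24%), and ATF3 (44.3%) and FOSB (42.6%) varied most. In sgWDR77-1, 7 of 10 lay above that condition's median of 12.7%, and in sgPRMT5-1, 8 of 10 lay above 8.08%. In sgPRMT5-2, 6 of 10 lay above 5.01%, and in sgWDR77-2, 9 of 10 above 8.54%.

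Levels of different genes were compared per kilobase of exons, since longer transcripts yield more reads. In sgNeg the order was EGR1 (244 ± 13.7 CPM per kb, SD, n = 3), FOS (150 ± 12.9), JUNB (149 ± 19.4), JUN (135 ± 2.57), FOSL1 (66.2 ± 11.9), ATF3 (27.5 ± 12.2), JUND (21.3 ± 2.60), FOSB (18.1 ± 7.71), FOSL2 (15.3 ± 1.05) and MAFF (7.71 ± 0.219). FOS, JUNB and JUN overlapped their neighbours in this order, as did ATF3, JUND, FOSB and FOSL2. EGR1, FOSL1 and MAFF each lay outside the range of the gene next in line. EGR1 led in 4 of the 5 conditions. In sgPRMT5-2 FOSL1 led with 206 to 218 CPM per kb, above EGR1 with 162 to 200. In sgWDR77-2 FOS came next after EGR1 with 255 to 321 CPM per kb, and the ranges of these 2 genes overlapped.

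**Figure D1:**
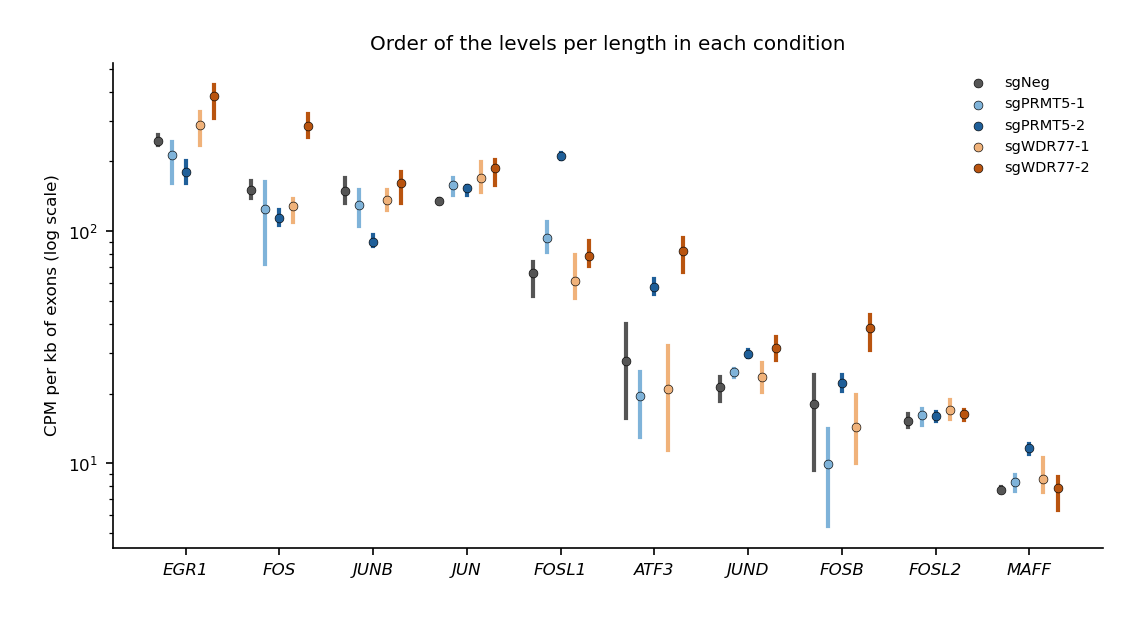
Level of each gene in CPM per kilobase of exons on a log axis, with the genes in the order of sgNeg. Points are means of 3 libraries and lines run from the lowest to the highest library. FOSL1 leads only in sgPRMT5-2 (211 CPM per kb), and ATF3 and FOSB reach their highest levels in sgWDR77-2 (82.2 and 38.2 CPM per kb).

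Each knockout, each sgRNA and each pair of sgRNAs was then compared across all genes that passed a filter on low counts, and all 10 genes passed it in all 9 comparisons. A gene is said to have risen or fallen, or to be called, where its limma voom p-value, adjusted over all genes tested by the Benjamini-Hochberg method, was at most 0.05. The comparisons with sgNeg share the same 3 control libraries and are not independent of each other. With the sgRNAs of a gene pooled, 1 of the 10 genes rose in PRMT5KO (6 libraries) and 0 fell, against 8.73% and 8.30% of the 14071 genes tested. At an unadjusted p under 0.05, 4 were higher and 3 lower, against 33.6% of all genes tested in either direction. In WDR77KO (6 libraries) 0 rose and 0 fell by limma voom, against 0.838% and 2.55% of 14073 genes, and 3 were higher and 0 lower at an unadjusted p under 0.05 (16.2% of all genes in either direction). Between the knockouts, 1 was higher and 2 were lower in PRMT5KO than in WDR77KO, against 7.99% and 6.01% of 14015 genes.

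The single sgRNAs were compared in the same way. With sgPRMT5-1, 1 of 10 rose and 0 fell, against 1.52% and 2.24% of 14102 genes (2 higher and 2 lower at an unadjusted p under 0.05 by limma voom, against 19.3% of all genes in either direction). With sgPRMT5-2, 5 rose and 3 fell, against 20.9% and 19.3% of 14184 genes. With sgWDR77-1, 0 rose and 0 fell, against 1.04% and 1.67% of 14202 genes, and limma voom gave 1 higher and 0 lower at an unadjusted p under 0.05, against 17.7% of all genes in either direction. With sgWDR77-2, 6 rose and 0 fell, against 1.89% and 3.08% of 14038 genes. Between sgRNAs of the same gene, 4 were higher and 1 was lower in sgPRMT5-2 than in sgPRMT5-1, against 9.94% and 9.31% of 13976 genes. In sgWDR77-2, 3 were higher and 0 lower than in sgWDR77-1, against 0.0999% and 0.0214% of 14011 genes. The 14 genes called higher in that whole comparison included FOS, FOSB and ATF3. The 10 genes were chosen with earlier results of these data known, so these counts are a description and not independent support. Of all genes, 17 were called there, and 0, 1 and 2 without sgWDR77-2 replicate 1, 2 and 3. The median log2 fold change of the 10 genes was 0.50 in sgWDR77-2 and 0.28 in sgPRMT5-2, against 0.01 and 0.00 over all genes tested. It was 0.04 in sgWDR77-1 and -0.08 in sgPRMT5-1, against 0.02 and 0.00. Scaling by library totals alone changed the share of calls that were higher from 51.3% to 34.0% in PRMT5KO, from 40.4% to 27.8% in sgPRMT5-1, from 52.0% to 39.5% in sgPRMT5-2, and from 57.1% to 37.7% between the knockouts. It turned no called change of the 10 genes around.

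**Figure D2:**
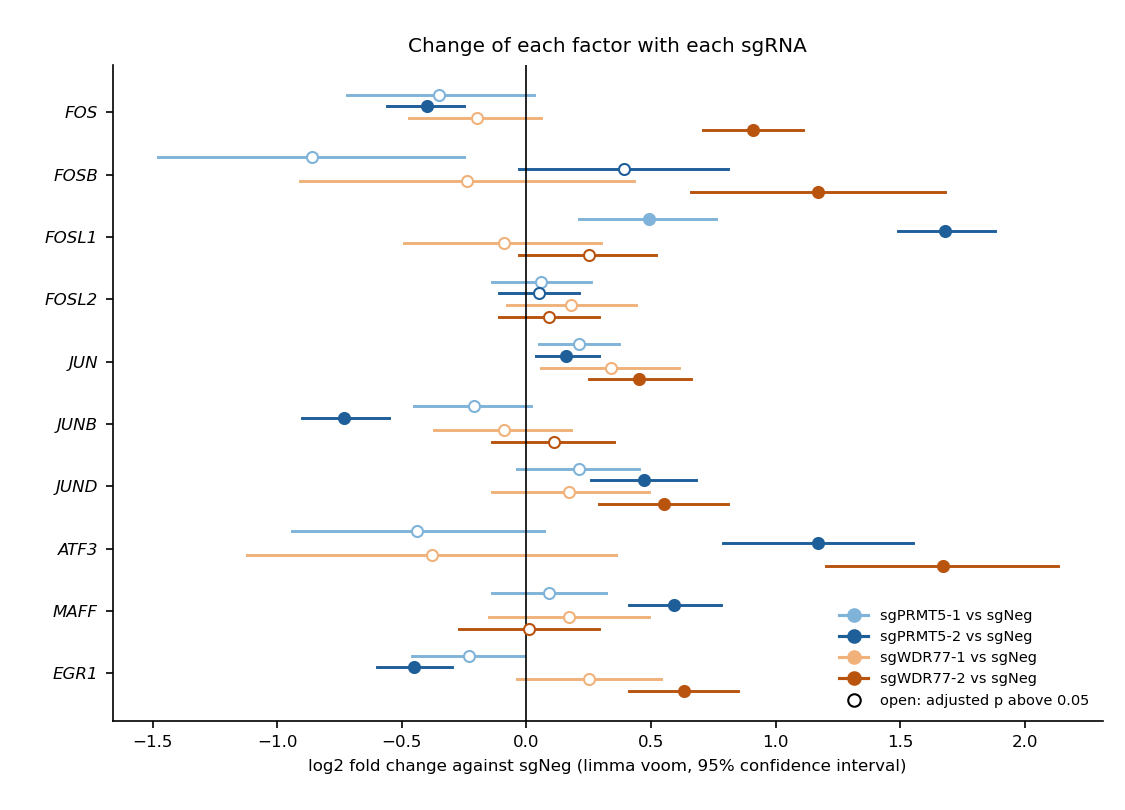
Log2 fold change of each gene against sgNeg for each sgRNA, with 95% confidence intervals from limma voom. Filled points have an adjusted p of at most 0.05. The second sgRNA to each target has 8 (sgPRMT5-2) and 6 (sgWDR77-2) filled points, the first 1 (sgPRMT5-1) and 0 (sgWDR77-1). The 4 comparisons share the sgNeg libraries.

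The FOS family came first in this order of roles, since its members supply the partner that gives AP-1 its strongest activation. FOSL1 (ENSG00000175592.9, chromosome 11) encodes FRA-1, the FOS protein most often linked to invasive carcinoma cells. It was at 99, 136 and 139 CPM in sgNeg replicates 1 to 3, at 167, 154 and 207 in sgPRMT5-1, and at 396, 389 and 412 in sgPRMT5-2. It was at 149, 97.5 and 99.8 CPM in sgWDR77-1 and at 171, 139 and 134 in sgWDR77-2. All 6 libraries with an sgRNA against PRMT5 lay above all 3 of sgNeg, the 3 of sgPRMT5-2 lay above all other 12, and both WDR77 conditions overlapped sgNeg. In PRMT5KO, 19.2% of all genes tested did not overlap sgNeg. FOSL1 rose by a log2 fold change of 1.68 ± 0.0935 (SE) in sgPRMT5-2 (adjusted p = 6.7e-11) and of 0.49 ± 0.129 in sgPRMT5-1 (adjusted p = 0.042). The rise was larger with sgPRMT5-2 by 1.2 ± 0.0792 (adjusted p = 1.73e-09). With both sgRNAs pooled it was 1.08 ± 0.319 (adjusted p = 0.0335), and the mean of PRMT5KO was above that of WDR77KO by 1.03 ± 0.237 (adjusted p = 0.0102). This call held in 18 of 18 alternatives, although the ranges overlapped (154 to 412 and 97.5 to 171 CPM).

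The pooled FOSL1 call passed in 8 of 15 alternatives (log2 fold change 0.91 to 1.23, adjusted p 3.37e-06 to 0.168). It was lost without sgNeg replicate 1 (0.168), 2 (0.103) or 3 (0.0814) and without sgPRMT5-2 replicate 1 (0.0602), 2 (0.0616) or 3 (0.055). It was also lost with a replicate block (1.08, adjusted p = 0.0574). For sgPRMT5-1 the call passed in 6 of 12 alternatives. It was lost under library totals alone (0.44, adjusted p = 0.0663), with all 15 libraries in 1 fit (0.5, adjusted p = 0.0735), without sgNeg replicate 1 (log2 fold change 0.31, adjusted p = 0.218) and without sgPRMT5-1 replicate 1 (0.058), 2 (0.0566) or 3 (0.141). Its adjusted p ran from 0.000166 to 0.218 over its alternatives.

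FOS (ENSG00000170345.10, chromosome 14), the founding member of the family and the fastest to respond to serum, had another pattern. It was at 442, 470 and 523 CPM in sgNeg, at 518, 449 and 230 in sgPRMT5-1, and at 336, 360 and 393 in sgPRMT5-2. It was at 352, 439 and 434 CPM in sgWDR77-1 and at 812, 1023 and 875 in sgWDR77-2. The 3 libraries of sgWDR77-2 were the highest of all 15, those of sgPRMT5-2 and sgWDR77-1 all lay below sgNeg, and those of sgPRMT5-1 spread across both. Of all genes tested, 50.4% did not overlap sgNeg in sgPRMT5-2, 25.5% in sgWDR77-2 and 24% in sgWDR77-1. With sgWDR77-1 FOS was not called (-0.2 ± 0.123, adjusted p = 0.419). FOS rose by 0.91 ± 0.0931 in sgWDR77-2 (adjusted p = 3.78e-05) and fell by 0.40 ± 0.0743 in sgPRMT5-2 (adjusted p = 0.000225, which was 0.106 with all 15 libraries in 1 fit). Between the WDR77 sgRNAs it differed by 1.14 ± 0.131 (adjusted p = 0.00567), and between PRMT5KO and WDR77KO by -0.71 ± 0.238, just above the threshold (adjusted p = 0.0543, and 4e-04 to 0.122 over 18 alternatives, of which 7 passed).

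FOSB (ENSG00000125740.14, chromosome 19) is induced with FOS and encodes a closely related subunit. It was at 52.1, 134 and 115 CPM in sgNeg, at 78.4, 56.9 and 29.8 in sgPRMT5-1, and at 114, 122 and 133 in sgPRMT5-2. It was at 55.8, 110 and 74.6 CPM in sgWDR77-1 and at 171, 242 and 223 in sgWDR77-2. The sgNeg libraries themselves spanned more than a doubling, and only sgWDR77-2 lay wholly outside them. There FOSB rose by 1.17 ± 0.238 (adjusted p = 0.0103), and 25.5% of all genes tested did not overlap sgNeg. FOSB passed there in 12 of 12 alternatives (log2 fold change 0.76 to 1.44, adjusted p up to 0.0458). With sgPRMT5-1 its value of -0.86 ± 0.293 missed the threshold (adjusted p = 0.111, over a range of 4e-06 to 0.368), but passed it in 4 of 12 alternatives, among them without sgNeg replicate 1 (-1.3, adjusted p = 0.0101) and without sgPRMT5-1 replicate 1 (-1.17, adjusted p = 0.0496). With sgPRMT5-2 its value of 0.39 ± 0.2 (adjusted p = 0.126, over a range of 0.00297 to 0.838) passed without sgNeg replicate 2 (0.66, adjusted p = 0.00297) and was -0.03 without sgNeg replicate 1. It was higher in the second sgRNA than in the first for both targets, by 1.25 ± 0.182 for PRMT5 (adjusted p = 6.07e-05) and by 1.43 ± 0.206 for WDR77 (adjusted p = 0.0181).

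FOSL2 (ENSG00000075426.12, chromosome 2), which encodes FRA-2, a subunit present in resting cells, changed in none of the 9 comparisons by limma voom, nor at an unadjusted p under 0.05. Its level ran from 102 to 118 CPM in sgNeg and from 105 to 135 CPM in the 12 knockout libraries. Its log2 fold changes against sgNeg were between 0.05 and 0.18 for the 4 sgRNAs, with the widest 95% interval from -0.08 to 0.44 in sgWDR77-1. With library totals alone as the scaling they were 0.01 in sgPRMT5-1, -0.03 in sgPRMT5-2 and -0.01 in PRMT5KO, so no direction is given for this gene.

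Together these values changed the makeup of the FOS family. FOSL1 made up 24.2%, 27.8% and 27.1% of the family's summed CPM per kb in the sgNeg libraries and 59.5%, 57.7% and 57.3% in sgPRMT5-2. FOS made up 63.9%, 57.0% and 60.1% in sgNeg and 29.9%, 31.7% and 32.4% in sgPRMT5-2. The ranges of these conditions lay far apart for both genes, so FOSL1 took the place of FOS as the main FOS family transcript in sgPRMT5-2. sgPRMT5-1 was divided, with FOSL1 at 31.4% and 32.7% in replicates 1 and 2 but 54.3% in replicate 3. In sgWDR77-2 FOS made up 65.0%, 70.5% and 68.2%, above all sgNeg libraries. The summed level of the family was 250 ± 29.2 CPM per kb (SD, n = 3) in sgNeg. It was 245 ± 40.5 for sgPRMT5-1 and 363 ± 15.2 for sgPRMT5-2, while sgWDR77-1 had 221 ± 5.4 and sgWDR77-2 had 416 ± 33.9. These shares were not tested across genes. In RNA from whole cultures, a change in the share of cells that express a gene and a change in RNA per cell cannot be told apart.

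**Figure D3:**
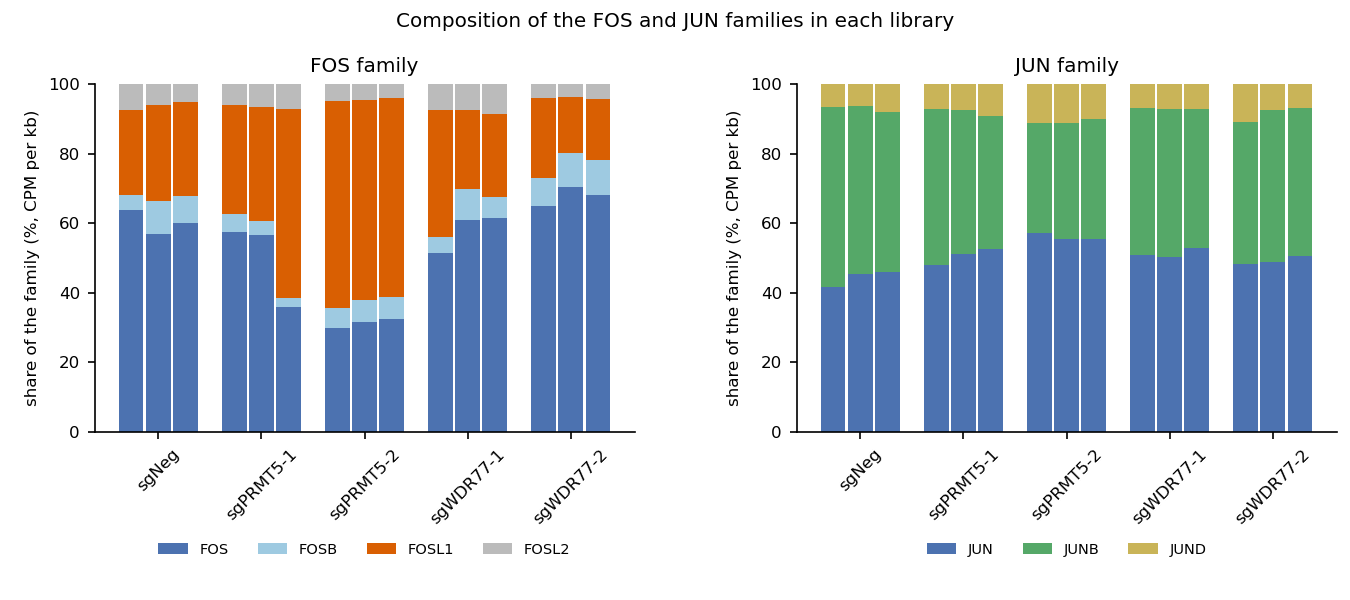
Share of each gene in the summed CPM per kb of its family, with 1 bar per library and bars grouped by condition (replicates 1 to 3 from left to right). On the left, FOSL1 is the largest part of the FOS family in all 3 sgPRMT5-2 libraries (57.3% to 59.5%) and in sgPRMT5-1 replicate 3 (54.3%). On the right, JUNB makes up 45.9% to 51.5% of the JUN family in sgNeg and 31.5% to 34.3% in sgPRMT5-2.

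sgPRMT5-1 replicate 3 stood apart from its replicates at several of the 10 genes. It had the lowest FOS (230 CPM), FOSB (29.8 CPM) and EGR1 (505 CPM) of all 15 libraries, with FOSL1 at 207 CPM, the highest outside sgPRMT5-2. Without it, the number of the 10 genes that differed between sgPRMT5-2 and sgPRMT5-1 was 9 instead of 5, and of all genes 4711 instead of 2690. FOS then was lower in sgPRMT5-2 by a log2 fold change of -0.41 (adjusted p = 6.3e-09, over a range of 6.3e-09 to 0.998) and EGR1 by -0.40 (adjusted p = 1.22e-09, over a range of 1.22e-09 to 0.533), whereas neither was called in the analysis reported. EGR1 passed in 3 of 12 alternatives, among them with no filter (-0.23, adjusted p = 0.00037). The part of its low mitochondrial share (0.729%) was not tested.

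**Figure D4:**
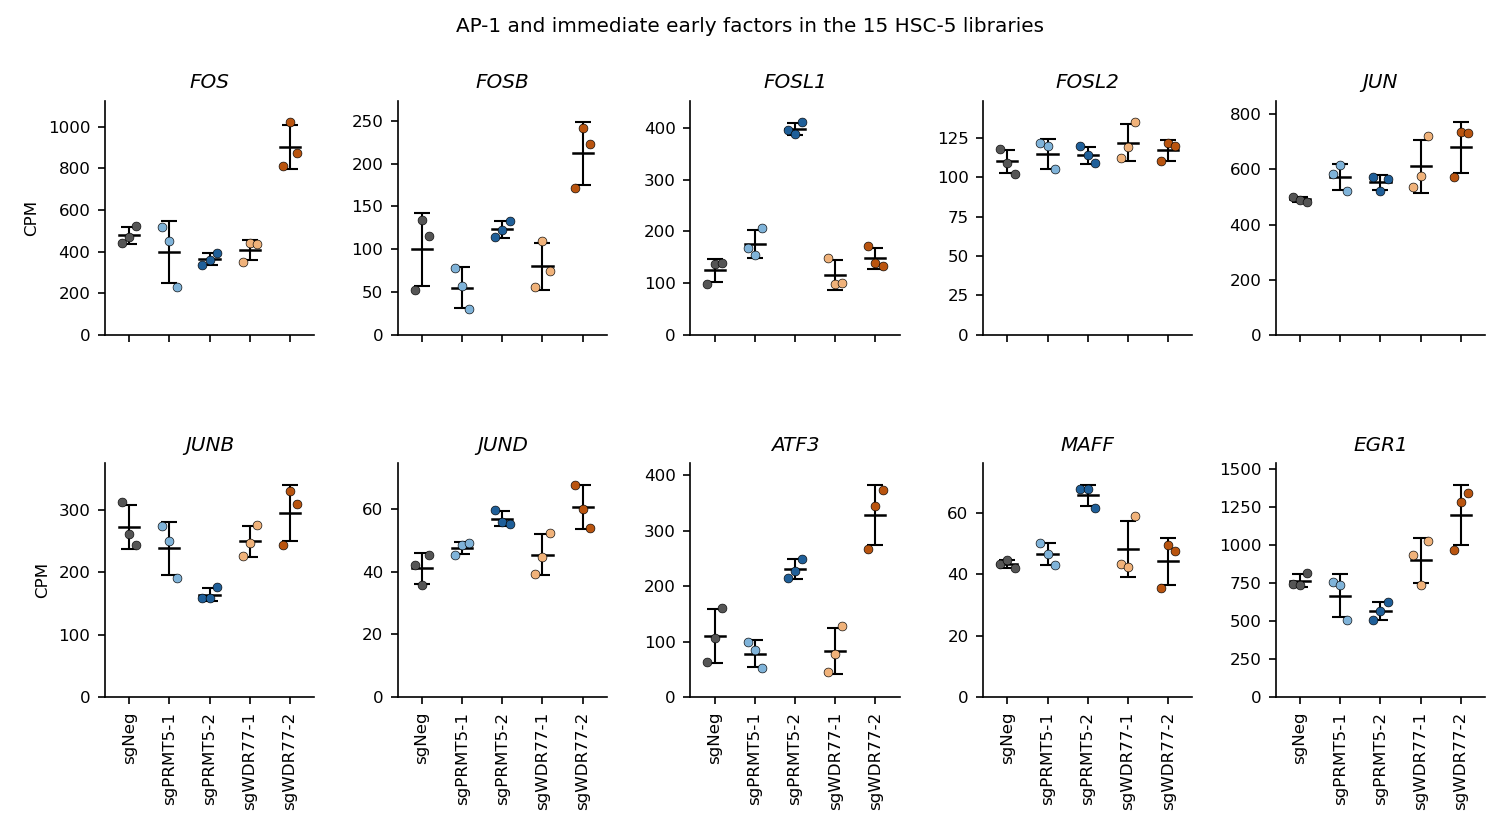
CPM of each gene in all 15 libraries, with 1 panel per gene and its own axis from 0. Coloured points are replicates 1 to 3 from left to right, and black lines show the mean ± SD of 3 libraries. sgPRMT5-2 stands apart for FOSL1 (389 to 412 CPM) and MAFF (61.6 to 67.7 CPM), and sgWDR77-2 for FOS (812 to 1023 CPM) and FOSB (171 to 242 CPM).

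In the JUN family, whose members bind DNA alone or with FOS proteins, JUN (ENSG00000177606.8, chromosome 1) is the subunit that promotes keratinocyte growth. It was at 501, 488 and 483 CPM in sgNeg, at 583, 616 and 523 in sgPRMT5-1, and at 571, 521 and 566 in sgPRMT5-2. It was at 537, 577 and 720 CPM in sgWDR77-1 and at 573, 735 and 731 in sgWDR77-2. All 12 knockout libraries lay above all 3 of sgNeg, by a small amount. The share of all genes that did not overlap sgNeg was 19.2% in PRMT5KO, 10.6% in WDR77KO and 24% in sgWDR77-1. The rise passed the threshold in sgWDR77-2 (0.45 ± 0.094, adjusted p = 0.011) and in sgPRMT5-2 (0.16 ± 0.0614, adjusted p = 0.039). It did not in sgPRMT5-1 (0.21 ± 0.0767, adjusted p = 0.145), sgWDR77-1 (0.34 ± 0.125, adjusted p = 0.178), PRMT5KO (0.18 ± 0.0632, adjusted p = 0.0597) or WDR77KO (0.39 ± 0.115, adjusted p = 0.0852). The sgPRMT5-2 call passed in 6 of 12 alternatives, and under library totals alone its value was 0.08 (adjusted p = 0.251), and with all 15 libraries in 1 fit 0.17 (adjusted p = 0.24). It was also lost with a replicate block (0.16, adjusted p = 0.0555), and without sgNeg replicate 3 (0.0638) or sgPRMT5-2 replicate 1 (0.0723) or 3 (0.0763). The sgWDR77-2 call was lost without sgWDR77-2 replicate 2 (0.0638). In sgWDR77-1 the change passed once replicate 1 was left out (0.41, adjusted p = 0.0168), as it did in WDR77KO (0.45, adjusted p = 0.0132).

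JUNB (ENSG00000171223.6, chromosome 19), which can restrain JUN and is needed for epidermal homeostasis, moved the other way with sgPRMT5-2. It was at 312, 261 and 243 CPM in sgNeg, at 274, 250 and 191 in sgPRMT5-1, and at 158, 159 and 176 in sgPRMT5-2. It was at 226, 246 and 275 CPM in sgWDR77-1 and at 244, 330 and 309 in sgWDR77-2. Only the sgPRMT5-2 libraries lay wholly below sgNeg, and all 3 were below the other 12 libraries. In sgPRMT5-2, 50.4% of all genes tested did not overlap sgNeg. JUNB fell by 0.73 ± 0.0847 in sgPRMT5-2 (adjusted p = 1.41e-06), was lower there than in sgPRMT5-1 (-0.52 ± 0.0961, adjusted p = 0.000738), and was lower in PRMT5KO than in WDR77KO (-0.45 ± 0.134, adjusted p = 0.0322). Against sgNeg the pooled value of -0.47 ± 0.156 missed the threshold (adjusted p = 0.0518) and passed it in 6 of 15 alternatives (0.00514 to 0.207). The difference between the knockouts passed in 10 of 18 alternatives (log2 fold change -0.56 to -0.4, adjusted p 0.00109 to 0.0803). It was lost without sgPRMT5-1 replicate 3 (0.0629), sgPRMT5-2 replicate 1 (0.0792), 2 (0.0803) or 3 (0.0692), sgWDR77-1 replicate 3 (0.0596), or sgWDR77-2 replicate 2 (0.067) or 3 (0.063). It was also lost with a replicate block (-0.45, adjusted p = 0.0517). HOOK2 on the opposite strand covers 14.2% of the exons of JUNB, so a part of its reads is uncertain.

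JUND (ENSG00000130522.6, chromosome 19), a subunit that is made in resting cells and slows growth, was lower per kb than JUN and JUNB in all 5 conditions. It ran from 35.7 to 45.5 CPM in sgNeg, from 45.5 to 49.1 for sgPRMT5-1 and from 55.3 to 59.7 for sgPRMT5-2, while sgWDR77-1 had 39.3 to 52.4 and sgWDR77-2 had 53.8 to 67.8. No library of sgPRMT5-1, sgPRMT5-2 or sgWDR77-2 lay below the highest of sgNeg, and those of sgWDR77-1 overlapped it. Of all genes tested, 50.4% did not overlap sgNeg in sgPRMT5-2, 24.3% in sgPRMT5-1 and 25.5% in sgWDR77-2. JUND rose by 0.47 ± 0.101 in sgPRMT5-2 (adjusted p = 0.000878) and by 0.55 ± 0.122 in sgWDR77-2 (adjusted p = 0.0167). The sgWDR77-2 call was lost without sgNeg replicate 2 (0.0755) or sgWDR77-2 replicate 2 (0.063). As a share of the family's summed CPM per kb, JUNB was 48.5% ± 2.85 (SD, n = 3) in sgNeg and 33.1% ± 1.43 in sgPRMT5-2. JUN was 44.5% ± 2.28 and 56.1% ± 1.02, and JUND 7% ± 1.01 and 10.9% ± 0.583. The JUN family thus passed from nearly equal JUN and JUNB in sgNeg to mostly JUN in sgPRMT5-2, while its summed level was 305 ± 21.9 and 272 ± 11.3 CPM per kb. In sgWDR77-2 that level was 380 ± 46.8 CPM per kb, with JUN at 49.3% ± 1.13 and JUNB at 42.3% ± 1.36. JUN also exceeded JUNB with the first sgRNAs. JUN was 50.6% ± 2.31 in sgPRMT5-1 and 51.3% ± 1.36 in sgWDR77-1, and JUNB 41.4% ± 3.37 and 41.6% ± 1.38.

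ATF3 and MAFF are stress-responsive basic leucine zipper factors outside the FOS and JUN families. ATF3 (ENSG00000162772.17, chromosome 1), which pairs with JUN proteins and often represses its targets, was at 62.8, 107 and 160 CPM in sgNeg, at 98.7, 84.7 and 52.1 in sgPRMT5-1, and at 215, 228 and 250 in sgPRMT5-2. It was at 45.6, 77.9 and 128 CPM in sgWDR77-1 and at 268, 344 and 374 in sgWDR77-2. The 6 libraries of sgPRMT5-2 and sgWDR77-2 lay above all 9 others, and those of the first sgRNAs overlapped sgNeg. Of all genes tested, 50.4% did not overlap sgNeg in sgPRMT5-2 and 25.5% in sgWDR77-2. ATF3 rose by 1.67 ± 0.218 in sgWDR77-2 (adjusted p = 0.000394) and by 1.17 ± 0.18 in sgPRMT5-2 (adjusted p = 3.69e-05). Its log2 fold changes with the first sgRNAs, -0.44 ± 0.24 for sgPRMT5-1 and -0.38 ± 0.343 for sgWDR77-1, missed the threshold (adjusted p = 0.337 and 0.606). The second sgRNA lay above the first by 1.60 ± 0.132 for PRMT5 (adjusted p = 3.52e-08) and by 2.07 ± 0.265 for WDR77 (adjusted p = 0.00768). With the sgRNAs pooled these values spread widely, and neither PRMT5KO (0.36 ± 0.445, adjusted p = 0.604) nor WDR77KO (0.63 ± 0.537, adjusted p = 0.627) was called. The pooled values ran from 0 to 0.65 in PRMT5KO and from 0.28 to 1.01 in WDR77KO over 15 alternatives each, of which 0 passed.

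The differences between the WDR77 sgRNAs in FOS, FOSB and ATF3 held in 9 of 12 alternatives each. They were lost without sgWDR77-2 replicate 1 (adjusted p = 0.0804, 0.109 and 0.109 in that order of genes), 2 (0.0655, 0.122 and 0.0655) or 3 (0.0527, 0.163 and 0.0974). The log2 fold changes without any 1 of these libraries were 1.05 to 1.21 for FOS, 1.34 to 1.58 for FOSB and 1.98 to 2.20 for ATF3.

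MAFF (ENSG00000185022.12, chromosome 22), a small MAF protein without an activation domain, had the lowest mean of the 10 per kb in all 5 conditions. Its range per kb overlapped that of FOSB in sgPRMT5-1 and sgWDR77-1. The level of MAFF ran from 42.1 to 44.5 CPM in sgNeg, from 42.8 to 50.1 for sgPRMT5-1 and from 61.6 to 67.7 for sgPRMT5-2, while sgWDR77-1 had 42.4 to 58.8 and sgWDR77-2 had 35.4 to 49.3. The 3 sgPRMT5-2 libraries were the highest of all 15, and 50.4% of all genes tested did not overlap sgNeg in that condition. MAFF rose there by 0.59 ± 0.0892 (adjusted p = 2.83e-05) and was higher than in sgPRMT5-1 by 0.50 ± 0.0933 (adjusted p = 0.000806). In sgWDR77-2, the condition in which FOS, FOSB, ATF3 and EGR1 were highest, its log2 fold change was 0.01 ± 0.13 (adjusted p = 0.978, 95% interval -0.27 to 0.29). PLA2G6 on the opposite strand covers 5.81% of the exons of MAFF.

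EGR1 (ENSG00000120738.8, chromosome 5) is a zinc finger factor and not part of AP-1, but is induced by the same signals through serum response factor, whose CArG boxes stand in capitals in its promoter above. It was at 744, 739 and 816 CPM in sgNeg, at 759, 738 and 505 in sgPRMT5-1, and at 507, 565 and 627 in sgPRMT5-2. It was at 934, 739 and 1029 CPM in sgWDR77-1 and at 971, 1286 and 1340 in sgWDR77-2. All sgPRMT5-2 libraries lay below sgNeg and all sgWDR77-2 libraries above it, while those of sgPRMT5-1 and sgWDR77-1 overlapped it. Of all genes tested, 50.4% did not overlap sgNeg in sgPRMT5-2 and 25.5% in sgWDR77-2. EGR1 fell by 0.45 ± 0.0734 in sgPRMT5-2 (adjusted p = 6.94e-05) and rose by 0.63 ± 0.104 in sgWDR77-2 (adjusted p = 0.00249). Neither pooled value against sgNeg passed the threshold, with -0.34 ± 0.119 for PRMT5KO (adjusted p = 0.0613) and 0.43 ± 0.147 for WDR77KO (adjusted p = 0.138). They passed in 4 of 15 alternatives (0.0132 to 0.146) and 2 of 15 (0.0327 to 0.368). The difference between the knockouts was -0.76 ± 0.135 (adjusted p = 0.00248) and held in 18 of 18 alternatives, although the ranges overlapped (505 to 759 CPM in PRMT5KO, 739 to 1340 CPM in WDR77KO).

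The 9 comparisons set the 10 genes apart by sgRNA. In the pooled values, an effect of the target cannot be told apart from that of single sgRNAs. ATF3, JUN and JUND rose with sgPRMT5-2 and with sgWDR77-2. FOS and EGR1 fell with sgPRMT5-2 and rose with sgWDR77-2. Against sgNeg, FOSL1 was called with both sgRNAs to PRMT5, MAFF and JUNB with sgPRMT5-2, and FOSB with sgWDR77-2. For MAFF the difference between PRMT5KO and WDR77KO, 0.27 ± 0.134, missed the threshold (adjusted p = 0.17). The summed level of all 10 was 835 ± 32.3 CPM per kb in sgNeg, 799 ± 124 for sgPRMT5-1 and 885 ± 43.8 for sgPRMT5-2, while sgWDR77-1 had 866 ± 89.1 and sgWDR77-2 had 1269 ± 146 (SD, n = 3). PRMT5 itself was at 36.8 ± 4.29 CPM in sgPRMT5-1 and 42.7 ± 2.85 in sgPRMT5-2, with overlapping ranges and a difference of 0.23 ± 0.109 that missed the threshold (adjusted p = 0.146, over a range of 0.0117 to 0.479) but passed it without sgPRMT5-1 replicate 3 (0.32, adjusted p = 0.0117). WDR77 was at 45.4 ± 12.6 CPM in sgWDR77-1 and 24.5 ± 2.33 in sgWDR77-2, a difference of -0.86 ± 0.21 that missed the threshold (adjusted p = 0.177) but passed it in 3 of 12 alternatives (adjusted p 0.000554 to 0.729), among them without sgWDR77-1 replicate 1 (-1.13, adjusted p = 0.000554). Transcript levels of an edited gene need not follow the level of its protein, which was not measured in these libraries.

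The genes whose pattern was most like that of a member were found by the root mean square difference of centred log2 CPM over all 15 libraries, among 11838 genes. This is a description, and the libraries share their conditions. Nearest to FOS were CCN2 (0.226), TRIB1 (0.283) and EGR1 (0.301), against a spread of 0.544 for FOS itself. Nearest to EGR1 were CCN2 (0.162), BTG2 (0.187) and NCOA7 (0.195), against 0.414. CCN2, a secreted matricellular protein, thus headed both lists. Nearest to ATF3 were DUSP5 (0.448), FOSB (0.453) and CSRNP1 (0.531), against 0.956. Nearest to FOSL1 were MT2A (0.206), FST (0.245) and CCDC86 (0.246), against 0.677. Among these nearest genes were 2 of the 10, EGR1 beside FOS and FOSB beside ATF3, and the nearest of FOSL1 and EGR1 held none.

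Lists of related genes were described by their counts beside the shares of all genes given above. The lists were chosen with earlier results of these data known, so their counts and medians are a description and no test of a class of genes. Of 13 other basic leucine zipper genes of the AP-1 family, 9 were tested against sgNeg. In sgPRMT5-2, 3 rose and 3 fell, and with each of the other single sgRNAs 0 did by limma voom. At an unadjusted p under 0.05, 1 was higher and 1 lower with sgPRMT5-1, 0 and 0 with sgWDR77-1, and 1 and 2 with sgWDR77-2. MAFG, the small MAF gene nearest in kind to MAFF, was at 114 to 118 CPM in sgNeg and 180 to 191 CPM in sgPRMT5-2, and rose there by 0.67 ± 0.0698 (adjusted p = 3.85e-07). JDP2, which represses AP-1 as a partner of JUN, was at 39.6 to 45.7 CPM in sgNeg and 29.7 to 32.1 CPM in sgPRMT5-2, and fell there by 0.47 ± 0.103 (adjusted p = 0.00124). MAFA had 11 counts or fewer in every library and is not described further.

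Of 27 other immediate early genes, 26 were tested. In sgPRMT5-2, 7 rose and 9 fell (median log2 fold change -0.10), and in sgWDR77-2, 6 rose and 1 fell (median 0.30, against 0.01 over all genes tested). sgPRMT5-1 gave 2 and 3, and sgWDR77-1 gave 0 and 1. All genes tested were also called most often with sgPRMT5-2 (20.9% higher and 19.3% lower). NR4A1, an orphan nuclear receptor induced with EGR1, was at 33.7 to 69.0 CPM in sgNeg, 17.5 to 27.5 in sgPRMT5-1 and 25.5 to 29.2 in sgPRMT5-2. It fell with both (-1.03 ± 0.217, adjusted p = 0.0113, and -0.79 ± 0.181, adjusted p = 0.00167). EGR2, a paralog of EGR1, was at 5.76 to 14.0 CPM in sgNeg and 1.19 to 2.03 CPM in sgPRMT5-2, and fell there (log2 fold change -2.49 ± 0.432, adjusted p = 0.000123). KLF10, an early target of TGF-beta, fell in both pooled knockouts (PRMT5KO -0.58 ± 0.135, adjusted p = 0.0141, WDR77KO -0.49 ± 0.125, adjusted p = 0.0397), and RHOB, a small GTPase, did so too (-0.32 ± 0.101, adjusted p = 0.0451, and -0.66 ± 0.154, adjusted p = 0.027). By single sgRNA, KLF10 missed the threshold with sgWDR77-1 (-0.37, adjusted p = 0.141). RHOB missed it with sgPRMT5-1 (-0.34, adjusted p = 0.15) and sgWDR77-2 (-0.45, adjusted p = 0.0746).

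ERK feedback genes, which ERK signalling switches on and most of which damp it, moved mainly upward with sgPRMT5-2, where 12 rose and 2 fell of 19 tested (median 0.74, against 0.00 over all genes tested). The counts were 1 and 1 of 19 with sgPRMT5-1, 1 and 2 of 18 with sgWDR77-1, and 2 and 0 of 18 with sgWDR77-2. DUSP1, a phosphatase of MAP kinases, was at 171 to 198 CPM in sgNeg, 308 to 323 in sgPRMT5-2 and 360 to 408 in sgWDR77-2, and rose with these 2 sgRNAs (0.76 ± 0.07, adjusted p = 6.97e-08, and 1.05 ± 0.0849, adjusted p = 5.02e-06). It was also higher with the second sgRNA than with the first for both targets (0.49, adjusted p = 0.000104 for PRMT5, and 1.12, adjusted p = 0.00768 for WDR77), as FOSB and ATF3 were. Of all genes, 17 were called between the WDR77 sgRNAs, and 0, 1 and 2 without sgWDR77-2 replicate 1, 2 and 3, by limma voom. PHLDA1, an ERK-induced pleckstrin-homology protein, was at 96.7 to 117 CPM in sgNeg, 159 to 181 in sgPRMT5-1 and 367 to 383 in sgPRMT5-2, an order like that of FOSL1. It rose by 0.68 ± 0.0989 (adjusted p = 0.000627) and 1.84 ± 0.0763 (adjusted p = 8.26e-13), and also with sgWDR77-1 (0.56 ± 0.129, adjusted p = 0.0411, 136 to 166 CPM). ETV4, an ETS factor, fell in PRMT5KO (-0.39 ± 0.106, adjusted p = 0.0246), and DUSP10, a phosphatase of JNK and p38, fell in WDR77KO (-0.67 ± 0.156, adjusted p = 0.0248). DUSP10 missed the threshold with sgWDR77-2 alone (-0.58 ± 0.173, adjusted p = 0.0708). It rose with sgPRMT5-2 (0.48 ± 0.107, adjusted p = 0.00131), and PRMT5KO lay above WDR77KO by 1.03 ± 0.134 (adjusted p = 0.000202).

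Of 24 MAP kinases and SRF cofactors, all tested, 8 rose and 4 fell in sgPRMT5-2 and 1 to 3 changed with each other sgRNA. MAP2K6, a kinase upstream of p38, was at 12.9 to 13.6 CPM in sgNeg, 6.16 to 6.96 in sgPRMT5-1 and 1.4 to 2.38 in sgPRMT5-2, and fell in PRMT5KO by 1.94 ± 0.349 (adjusted p = 0.00497). MRTFA, an actin-regulated cofactor of serum response factor, rose in PRMT5KO (0.54 ± 0.102, adjusted p = 0.00582) and with sgWDR77-2 (0.42 ± 0.103, adjusted p = 0.0279). Its value in WDR77KO was 0.39 ± 0.103 (adjusted p = 0.0508), and the difference between the knockouts missed the threshold (0.17 ± 0.0865, adjusted p = 0.19). The transcripts of the kinases are not a measure of their activity.

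Genes known as AP-1 targets in epithelial cells were also counted. Of 28, 21 were tested in sgPRMT5-2, where 15 rose and 1 fell (median 1.03), and 20 in sgPRMT5-1, where 7 rose and 3 fell (median 0.30). In sgWDR77-1, 2 rose and 3 fell (median 0.03), and in sgWDR77-2, 5 rose and 4 fell (median 0.09), of 21 each. Between the knockouts 13 were higher in PRMT5KO and 0 lower (median 0.75, against 0.02 over all genes tested). The PRMT5 sgRNAs also differed, with 16 of these genes higher and 1 lower in sgPRMT5-2 than in sgPRMT5-1. IL1B, a cytokine, was at 90.9 to 107 CPM in sgNeg, 230 to 250 in sgPRMT5-1 and 470 to 495 in sgPRMT5-2, and rose in PRMT5KO by 1.77 ± 0.278 (adjusted p = 0.00254). It was at 111 to 181 CPM in WDR77KO, above sgNeg in 6 of 6 libraries, where 10.6% of all genes tested did not overlap sgNeg. IL1B rose with sgWDR77-2 (0.63 ± 0.11, adjusted p = 0.00349). It missed the threshold with sgWDR77-1 (0.22 ± 0.114, adjusted p = 0.342) and in WDR77KO (0.42 ± 0.141, adjusted p = 0.133). PRMT5KO lay above WDR77KO by 1.37 ± 0.202 (adjusted p = 0.000623).

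The matrix metalloproteases of that list did not move as one. MMP13, a collagenase, was at 52.9 to 55.5 CPM in sgNeg and at 8.12 to 20.9 CPM in the 12 knockout libraries, and fell with all 4 sgRNAs, with pooled values of -1.94 ± 0.192 for PRMT5KO (adjusted p = 0.000117) and -2.14 ± 0.146 for WDR77KO (adjusted p = 2.93e-07). MMP1, the interstitial collagenase, was at 24.3 to 48.8 CPM in sgNeg, 17.7 to 27.9 for sgPRMT5-1 and 78.0 to 88.8 for sgPRMT5-2, while sgWDR77-1 had 6.11 to 9.05 and sgWDR77-2 had 9 to 14.2. It rose with sgPRMT5-2 (1.16 ± 0.154, adjusted p = 6.17e-06) and fell with the other 3 sgRNAs, by 0.78 (adjusted p = 0.0469), 2.24 (adjusted p = 0.00249) and 1.73 (adjusted p = 0.00134). MMP10, a stromelysin, was at 10.7 to 15.7 CPM in sgNeg and 2.55 to 5.01 CPM in WDR77KO, and fell there by 1.87 ± 0.238 (adjusted p = 0.000231). It also fell with sgPRMT5-1 (-1.18 ± 0.227, adjusted p = 0.0061) but was not called with sgPRMT5-2 (0.33 ± 0.16, adjusted p = 0.11), and these sgRNAs differed by 1.49 ± 0.186 (adjusted p = 9.13e-06). The condition with the highest FOSL1 was also that with the highest MMP1 and one of those with the lowest MMP13. Other conditions went another way. With sgPRMT5-1 FOSL1 rose (0.49 ± 0.129) while MMP1 fell, and MMP13 fell with both WDR77 sgRNAs, where FOSL1 was not called. Whether MMP1 or MMP13 is bound by an AP-1 protein in these cells was not tested.

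**Figure D5:**
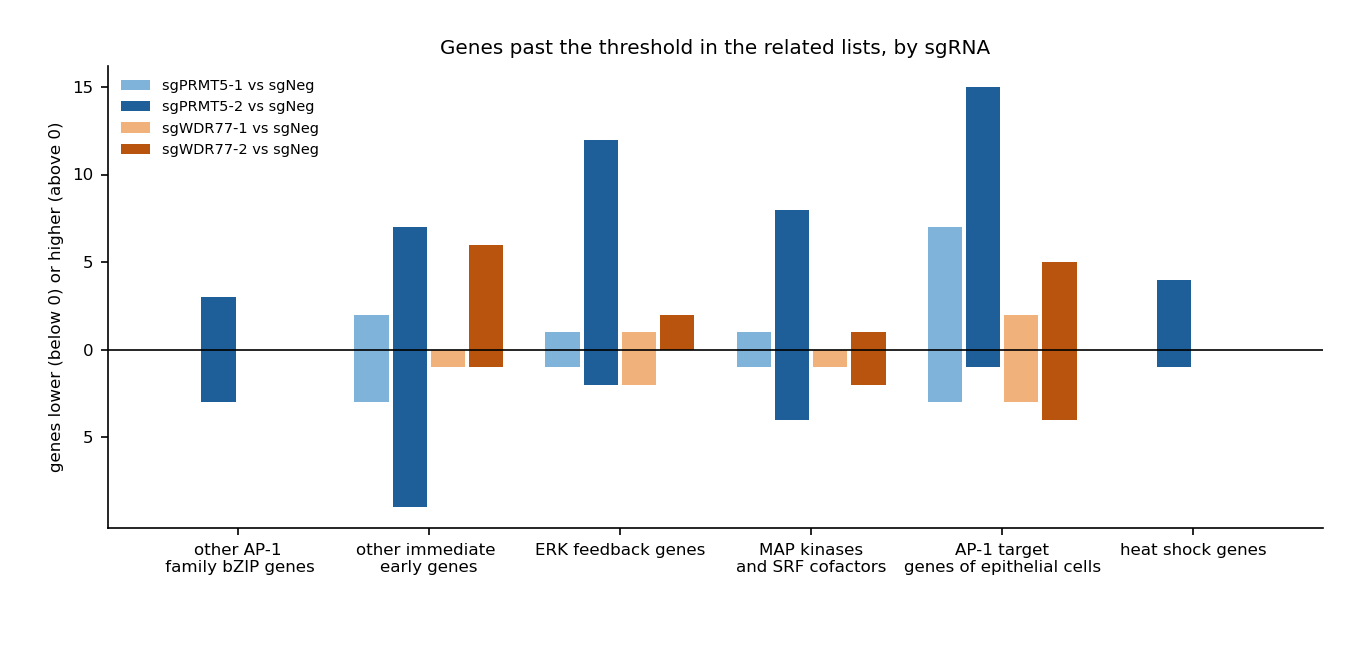
Number of genes past the threshold in 6 lists of related genes, above 0 for genes that rose and below 0 for genes that fell, for each sgRNA against sgNeg. sgPRMT5-2 leads in each list by genes that rose, with 15 AP-1 target genes and 12 ERK feedback genes higher. It does not lead by genes that fell in every list, with 1 AP-1 target gene lower against 4 with sgWDR77-2. It also has the most calls among all genes (20.9% higher and 19.3% lower).

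Heat shock genes also respond to stress. Of 12, 11 were tested, and 4 rose and 1 fell in sgPRMT5-2 (median 0.12), while with each other sgRNA 0 did by limma voom. At an unadjusted p under 0.05, the counts higher and lower were 1 and 1 with sgPRMT5-1, 0 and 2 with sgWDR77-1, and 2 and 1 with sgWDR77-2. Their summed level was 7983 to 9008 CPM in sgNeg, 8437 to 9420 for sgPRMT5-1 and 9590 to 9684 for sgPRMT5-2, while sgWDR77-1 had 6336 to 9211 and sgWDR77-2 had 8117 to 9407. In sgWDR77-2, where ATF3 was highest, the sum thus overlapped sgNeg, although all 3 libraries lay above sgNeg for HSPH1 (0.28 ± 0.0929, adjusted p = 0.0936) and DNAJA1 (0.22 ± 0.0806, adjusted p = 0.133). In that condition 25.5% of all genes tested did not overlap sgNeg. HSPH1, a chaperone of the HSP110 family, rose in PRMT5KO (0.45 ± 0.112, adjusted p = 0.0183), as did DNAJA1, a co-chaperone (0.30 ± 0.092, adjusted p = 0.0376), and HSPB1, a small heat shock protein, fell (-0.35 ± 0.101, adjusted p = 0.0313).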

How the data were processed

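RNA-seq libraries of HSC-5 cells were grouped by their labels into 5 conditions of 3. The authors aligned reads to hg38 with STAR, counted them per gene with HTSeq and used DESeq2, and deposited unscaled whole-number counts. The annotation release and strand setting were not given in the sources used here. The counting summary entries were kept out of library sizes: 2.75% to 7.16% of listed reads lay outside genes, 7.09% to 7.93% were ambiguous and 9.49% to 13.1% were placed more than once.

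Counts were scaled with TMM factors (0.3 of log ratios and 0.05 of mean levels trimmed). Genes with a mean normalized count of at least 3 were tested with limma voom (limma 3.58.1, R 4.3.3) on the libraries compared, with Benjamini-Hochberg adjustment over all genes tested and a threshold of 0.05. limma voom replaced the authors' tool because the automated unit check could not read these tables. p-values measure the spread among these libraries. PRMT5KO and WDR77KO pool both sgRNAs of a gene and count their libraries as replicates, although the sgRNAs differed. Their p-values thus do not take the sgRNA as the unit. CPM use the same factors. Functions were tested on simulated data. Positions and exon lengths came from GENCODE release 44 (60463 of 60649 genes matched), promoters from RefSeq (GRCh38.p14).

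The 10 genes, PRMT5 and WDR77 were always named. Of each list, up to 3 called genes with the smallest p in each knockout were named, and for likeness the 3 nearest genes with a mean count of at least 10. Some genes that this rule would name are not described here. Members and lists were chosen with earlier results of these data known. Alternatives were RLE scaling, library totals alone, no filter, a minimum mean count of 10, a replicate block, all 15 libraries in 1 fit, and each library left out in turn. Values of genes with low counts carry wide errors at this depth (5146711 to 6730428 reads).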

Additional observations from a re-analysis of the deposited data

Results flagged for a closer look

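Several of the 10 genes differed between conditions by a direct limma voom test of that difference. Between the sgRNAs against PRMT5, sgPRMT5-2 minus sgPRMT5-1, the log2 differences were 1.25 for FOSB, 1.2 for FOSL1, -0.52 for JUNB, 1.60 for ATF3 and 0.50 for MAFF. Between the sgRNAs against WDR77, sgWDR77-2 minus sgWDR77-1, they were 1.14 for FOS, 1.43 for FOSB and 2.07 for ATF3. Between the pooled knockouts, PRMT5KO minus WDR77KO, they were 1.03 for FOSL1, -0.45 for JUNB and -0.76 for EGR1. In these pooled values a difference between targets cannot be told apart from one between single sgRNAs. For JUNB, sgPRMT5-1 (191 to 274 CPM) overlapped sgWDR77-1 (226 to 275 CPM), whereas sgPRMT5-2 was at 158 to 176 CPM. FOSB and ATF3 were higher with the second sgRNA for both targets. The cause of these differences was not tested. The 6 libraries of each knockout were also searched, for each of the 10 genes, PRMT5 and WDR77 (24 groups), for a library whose gap to the next was a large part of the whole range, and 0 were found. Groups of 3 replicates were not searched in this way, so this does not bear on the libraries that stood apart from their replicates.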

How the results depend on the processing

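Of the alternative values of single genes, 1342 stayed on their side of the threshold, 58 newly passed it and 40 no longer passed it. Called values kept their direction, but some values that were not called changed sign, such as FOSB in PRMT5KO (-0.24, and 0.03 without sgNeg replicate 2). The number of the 10 genes called in PRMT5KO (1 in the analysis reported) was 2 with RLE scaling, 3 with library totals alone, 4 with no filter, 2 with a mean count of at least 10 and 4 with all 15 libraries in one fit, and 0 to 5 with a library left out. In WDR77KO (0 by limma voom, 3 at an unadjusted p under 0.05) it was 1 with no filter, 3 with all 15 libraries in one fit and 0 to 1 with a library left out, where sgWDR77-1 replicate 1 or 2 gave the 1. Between the knockouts (3) it was 6 with all 15 libraries in one fit, 5 without sgWDR77-1 replicate 1 and 2 without any 1 of 7 other libraries. In sgPRMT5-1 (1) it was 0 with library totals alone, 6 with no filter, 0 with all 15 libraries in one fit, and 0 without sgPRMT5-1 replicate 2 or 3. In sgWDR77-1 (0) it was 1 without replicate 1. Between the PRMT5 sgRNAs (5) it was 9 without sgPRMT5-1 replicate 3, and between the WDR77 sgRNAs (3) it was 0 without any 1 replicate of sgWDR77-2. The cause was not tested.

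Over all genes, calls with all 15 libraries in one fit were 1187 in WDR77KO (477 reported), 3813 between the knockouts (1962), 1333 in sgWDR77-1 (385), 1059 between the PRMT5 sgRNAs (2690) and 339 between the WDR77 sgRNAs (17). With no filter they were 987 in sgPRMT5-1 (530) and 127 between the WDR77 sgRNAs, and with library totals alone 11 between the WDR77 sgRNAs. With a library left out, the counts were 483 to 3562 in PRMT5KO (2397), 199 to 677 in WDR77KO, 876 to 3178 between the knockouts, 211 to 510 in sgPRMT5-1, 56 to 1003 in sgWDR77-1, 293 to 661 in sgWDR77-2 (698), 1429 to 4711 between the PRMT5 sgRNAs and 0 to 156 between the WDR77 sgRNAs. The cause was not tested.

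With the replicate block, 0 of the 10 genes were called in PRMT5KO by limma voom (4 higher and 3 lower at an unadjusted p under 0.05 without it) and 3 in sgPRMT5-1, and over all genes 1529 were called in sgPRMT5-1 and 380 in sgWDR77-2. Under it the adjusted p was 0.0574 for FOSL1 in PRMT5KO, 0.0517 for JUNB between the knockouts and 0.0555 for JUN in sgPRMT5-2, with log2 fold changes of 1.08, -0.45 and 0.16, and FOSB passed in sgPRMT5-1 (-0.86, 0.00768) and sgPRMT5-2 (0.35, 0.0305). Replicate numbers did not pair the libraries: correlations between conditions ran from -0.332 to 0.272 (median -0.00565) for 30 pairs with the same number and from -0.261 to 0.456 (median 0.002) for 60 pairs with different numbers.

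Depth limits what can be seen: with 5146711 to 6730428 reads per library, a gene at 1 CPM has few counts, and a missed threshold does not show that a gene was the same.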
